A study of Mus musculus with 22 samples.

Results

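Of the 52636 genes in the deposited table, 10 encode the chemokines described here, chosen by name because they are made by, or can be induced in, the gut epithelium. They comprise 5 genes of the CC class (Ccl6, Ccl9, Ccl20, Ccl25 and Ccl28), 4 of the CXC class (Cxcl1, Cxcl5, Cxcl10 and Cxcl16) and the single CX3C gene, Cx3cl1. Chemokines are small secreted or membrane-anchored proteins that guide the migration of leukocytes through G protein-coupled receptors. In the small intestine, homeostatic chemokines such as CCL25 and CCL28 recruit lymphocytes and antibody-secreting cells to the healthy mucosa. Inducible chemokines such as CXCL1, CXCL10 and CCL20 are raised by infection, injury and inflammatory cytokines, commonly through the transcription factor NF-kB or through interferon signalling.

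The RNA came from organoids, cultures grown from stem cells of the adult duodenum of wild-type mice of the outbred CD1 strain, and was sequenced as 22 libraries. An organoid line from 1 mouse is the unit of replication: lines 1, 2, 3 and 4 each gave 1 untreated library, and lines 1, 2 and 4 each gave 1 library in every one of 6 treated groups (n = 3). By the labels line 1 was at passage 12, line 2 at passage 14, and lines 3 and 4 at passage 4. Cold atmospheric plasma (CAP), an ionized helium jet, was applied to the culture itself on day 1, with the medium changed after 30 min or 24 h (direct CAP), or naive organoids received the medium of another plasma-treated culture (indirect CAP) or plasma-activated medium that had held no organoids (PAM) for 24 h, from day 1 or from day 2. By the study's methods all cultures ended together, so that 30 min and 24 h are times of exposure and not of harvest. The groups from day 1 thus spent a last day in fresh medium and those given treated medium from day 2 did not. By the paper's figure legends the treated medium given on day 1 was freshly generated, whereas that given on day 2 had been generated on day 1. The labels state 30 min for both treated media from day 1 where the methods state 24 h. Organoids are grown from epithelium alone, and the cells were labelled as stem cells.

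Values are reads counted per gene, scaled by the authors to 20 M per library and not divided by gene length. The spacing of low values put the depth at between 19.4 and 28.7 M reads per library, so that a value of 1 stands for about 1 read. The epithelial markers Epcam, Cdh1, Krt8, Krt18 and Vil1 had minima between 8635 and 28424 over all libraries. Among the listed leukocyte genes, Cd79a, Adgre1 and S100a8 were at most at 4, Ptprc at most at 12 and Cd3e at most at 25, whereas Itgam reached 118 and Csf1r lay between 241 and 334. The 5 stem markers Lgr5, Olfm4, Ascl2, Smoc2 and Axin2 summed to between 32557 and 38876 in the untreated libraries and to between 757 and 2747 in day 2 PAM. Markers of differentiated cells were high in the same untreated libraries, with 7 enterocyte genes summing to between 110990 and 129268 and 8 goblet cell genes to between 80459 and 138764.

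The DNA just upstream of an inducible chemokine commonly carries NF-kB and interferon response elements. RefSeq promoter windows (GRCm38.p6, 250 bases before to 50 bases after the annotated start) were matched for 8 of the 10 genes, with none for Cxcl5 or Cxcl16. They were searched on both strands for an NF-kB type motif, GGGA and TTCC separated by 2 bases of any kind, and an interferon response type motif, GAAA repeated after a gap of 2 bases. Of 32851 promoter windows of this length, 1.47% held the first and 3.44% the second. Among the chemokines the first was found in Cxcl1 and Cxcl10 and the second in Cxcl10, and in no other matched window. Both windows are shown with the matched letters in capitals, together with that of Ccl28, the gene with the lowest level relative to untreated cultures, in which neither motif was found.
Cxcl10, chr5:92348840-92349139, minus strand: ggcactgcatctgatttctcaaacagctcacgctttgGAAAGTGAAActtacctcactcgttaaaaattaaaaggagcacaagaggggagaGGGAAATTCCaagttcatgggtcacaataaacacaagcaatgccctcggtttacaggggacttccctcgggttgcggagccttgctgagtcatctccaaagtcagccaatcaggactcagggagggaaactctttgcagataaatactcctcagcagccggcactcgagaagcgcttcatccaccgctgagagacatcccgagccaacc
Cxcl1, chr5:90890995-90891294, plus strand: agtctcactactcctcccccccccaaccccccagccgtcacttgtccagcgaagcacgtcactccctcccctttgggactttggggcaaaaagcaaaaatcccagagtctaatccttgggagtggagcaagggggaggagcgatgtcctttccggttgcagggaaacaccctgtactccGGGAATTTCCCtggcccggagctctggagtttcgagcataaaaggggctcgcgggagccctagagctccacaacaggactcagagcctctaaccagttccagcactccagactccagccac
Ccl28, chr13:119623569-119623868, plus strand: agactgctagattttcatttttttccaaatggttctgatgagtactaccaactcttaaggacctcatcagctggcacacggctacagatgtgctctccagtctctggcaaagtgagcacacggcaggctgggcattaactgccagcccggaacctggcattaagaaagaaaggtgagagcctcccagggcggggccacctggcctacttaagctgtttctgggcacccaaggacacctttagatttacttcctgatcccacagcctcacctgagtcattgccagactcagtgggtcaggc
In Cxcl10 the interferon response type match begins at position -213 relative to the start and the NF-kB type match at -159. In Cxcl1 the capitals cover 2 overlapping matches, one on each strand, of which the first begins at -71. A match describes the letters only and shows no binding.

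The question of the design was how plasma, applied directly or through the medium, alters gene expression in normal intestinal organoids. Each treated group was set against the 4 untreated libraries with limma on log2(value + 1), over all genes with a value of at least 10 in 3 or more of the libraries compared, and a gene counted as past the threshold where its Benjamini-Hochberg adjusted p was below 0.01 and its mean differed by 1 or more on the log2 scale. Because all 6 comparisons share the same untreated libraries, they are not independent. Ccl9, Ccl28 and Cxcl16 were past the threshold when 24 h of direct CAP, day 1 indirect CAP and day 1 PAM were pooled (9 libraries). Those libraries came from only 3 lines and were fitted as independent, so the SE and p-values of this pooled comparison can overstate its certainty. Of all genes tested in that comparison, 4.27% were past the threshold and higher and 2.07% lower. Cxcl5 never passed the filter on low values, and Cxcl10 was tested only where treated libraries raised it over the filter, so it was not tested after 30 min of direct CAP and is left out of the counts of chemokines past the threshold.

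With 30 min of direct CAP none of the 8 chemokines tested was past the threshold, as was 0.00564% of all genes (1 of 17731). In limma 4 of them (Ccl9, Ccl25, Ccl28 and Cx3cl1) had an unadjusted p under 0.05, against 24.9% of all genes tested. The 24 h direct exposure gave 2 lower chemokines, where 0.917% of all genes were lower and 1.25% higher. Day 1 indirect CAP gave the same 2, Ccl9 and Ccl28, with 0.477% of all genes lower and 0.831% higher. Day 1 PAM gave 2 lower and 1 higher chemokine (5.4% and 4.83% of all genes). Day 2 indirect CAP gave 3 lower and 1 higher (5.71% and 6.2%), and day 2 PAM gave 3 lower and 1 higher (10.5% and 6.82%).

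**Figure D1:**
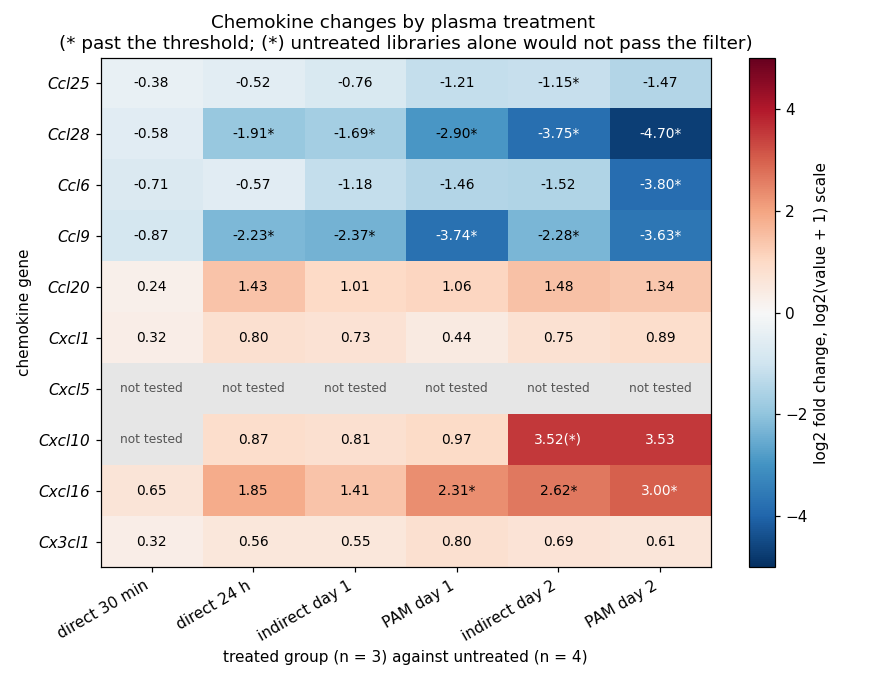
Log2 fold change of each chemokine in each treated group (n = 3) against untreated organoids (n = 4), on the log2(value + 1) scale, with an asterisk where the gene was past the threshold, in brackets where the untreated libraries alone would not have passed the filter on low values. Ccl28 and Ccl9 carry asterisks in 5 of the 6 groups and Cxcl16 in 3, all in one direction per gene.

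Ccl28 (ENSMUSG00000074715, chromosome 13, 119623819 to 119654359) encodes a mucosal chemokine that attracts IgA-secreting plasma cells through CCR10 and has antimicrobial activity of its own. Its untreated values were 1109, 844, 1156 and 1127 in lines 1, 2, 3 and 4. After 30 min of direct CAP, lines 1, 2 and 4 gave 577, 745 and 811, and after 24 h 214, 221 and 455. All 18 treated libraries lay below all 4 untreated libraries. For this and the other chemokines, the share of all genes separated from untreated libraries in this way was counted for 30 min of direct CAP alone. With day 1 indirect CAP the values were 261, 272 and 480, and with day 1 PAM they were 75, 127 and 287. Exposure from day 2 gave 62, 61 and 121 with indirect CAP, and PAM gave 53, 36 and 32. The PAM day 2 libraries had the lowest values of any group and did not overlap those of day 2 indirect CAP, the next lowest group.

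Ccl28 was lower and past the threshold in 5 of 6 groups. Its log2 fold change was -1.91 (SE 0.26, limma adjusted p = 0.0044) after 24 h of direct CAP and -1.69 (SE 0.22, limma adjusted p = 0.0046) with day 1 indirect CAP. It was -2.90 (SE 0.38, limma adjusted p = 0.00077) with day 1 PAM, -3.75 (SE 0.24, limma adjusted p = 4.24e-05) with day 2 indirect CAP and -4.70 (SE 0.20, limma adjusted p = 8.73e-05) with day 2 PAM, a 26.0-fold lower level. In the 24 h direct group the call was lost on leaving out the untreated library of line 1, 2, 3 or 4 or the treated library of line 1 (limma adjusted p from 0.0123 to 0.0196). With day 1 indirect CAP it was lost without any of the 4 untreated libraries or the treated library of line 1 or 2 (0.0112 to 0.0171). In the other 3 groups it was past the threshold with each library left out in turn. In RNA from whole organoids, fewer cells of a type and less RNA per cell cannot be told apart.

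Ccl25 (ENSMUSG00000023235, chromosome 8, 4325210 to 4360020) encodes the ligand of CCR9, which draws T cells and plasma cells to the small intestine. Per length of exon it had the highest level of the 10 genes in untreated organoids, and its values there were 4905, 5698, 5156 and 4802 in lines 1 to 4. Direct CAP at 30 min gave 4278, 4723 and 3042 in lines 1, 2 and 4, and 24 h of direct CAP 3548, 4561 and 2847. Every treated library was below every untreated library here too. Indirect CAP gave 3008, 4314 and 2148 from day 1 and 2252, 3305 and 1662 from day 2. PAM gave 1319, 3951 and 2096 from day 1 and 2769, 3722 and 610 from day 2. Line 2 had the highest value in each of the 6 treated groups and line 4 the lowest in 5 of them.

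Only with day 2 indirect CAP was Ccl25 past the threshold, lower by 1.15 on the log2 scale (SE 0.20, limma adjusted p = 0.0025). It did not reach the fold threshold without the treated library of line 4 (log2 fold change -0.91) or the p threshold without that of line 1 (limma adjusted p = 0.0105), and in a single fit of all 7 groups the call was lost as well (limma adjusted p = 0.0565). The log2 fold change was -1.21 (SE 0.31, limma adjusted p = 0.0139) with day 1 PAM, and leaving out the treated library of line 2 took it past the threshold, at -1.62 (limma adjusted p = 0.00066). With day 2 PAM it was -1.47 (SE 0.54, limma adjusted p = 0.0513). Exons of Ccl25 share 204 bases with Elavl1, which lies on the opposite strand and had a median value of 2411. The strand setting of the counting is not given in the sources used here, so reads from that stretch cannot be assigned to either gene.

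Ccl9 and Ccl6 are neighbouring genes on chromosome 11 (ENSMUSG00000019122, 83572919 to 83578636, and ENSMUSG00000018927, 83587882 to 83593087) and encode related mouse ligands of CCR1, a receptor on monocytes, macrophages and other myeloid cells. No annotated transcript of either shared 100 identical bases with another gene. Ccl9 had untreated values of 619, 509, 708 and 489 in lines 1 to 4. Direct CAP at 30 min gave 262, 515 and 229 in lines 1, 2 and 4, and 24 h of direct CAP 111, 189 and 86. The value of 515 in line 2 was the single one of 18 treated values inside the untreated range. Indirect CAP gave 120, 162 and 69 from day 1 and 219, 103 and 72 from day 2. PAM gave 16, 103 and 44 from day 1 and 99, 47 and 20 from day 2.

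Ccl9 was lower and past the threshold in 5 of 6 groups. The log2 fold change was -2.23 (SE 0.26, limma adjusted p = 0.0032) after 24 h of direct CAP and -2.37 (SE 0.27, limma adjusted p = 0.0038) with day 1 indirect CAP. It was -3.74 (SE 0.51, limma adjusted p = 0.00091) with day 1 PAM, a 13.4-fold lower level. From day 2 it was -2.28 (SE 0.34, limma adjusted p = 0.0011) with indirect CAP and -3.63 (SE 0.46, limma adjusted p = 0.00072) with PAM. In a single fit of all 7 groups the first 2 of these calls were lost, with limma adjusted p of 0.0131 and 0.0115. Both were also lost when the untreated library of line 2 was left out (0.0115 and 0.0145), or that of line 4 (0.0110 and 0.0131), or the treated library of line 1 (0.0154 and 0.0121), and the first also without untreated line 1 (0.0101).

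Ccl6 did not share this uniform pattern. Untreated libraries gave 512, 263, 232 and 318 in lines 1 to 4. In line 2 the values were 411 and 508 after 30 min and 24 h of direct CAP, 479 with day 1 indirect CAP and 462 with day 1 PAM, all within the untreated range, and those from day 2 were 179 for indirect CAP and 38 for PAM. In line 1 the 6 treated values lay between 28 and 132 and in line 4 between 6 and 170. Lines 1 and 4 were thus below every untreated library in every treated group, and line 2 only in the groups from day 2. Ccl6 was past the threshold with day 2 PAM alone, where 42, 38 and 6 in lines 1, 2 and 4 gave a log2 fold change of -3.80 (SE 0.62, limma adjusted p = 0.0020). With day 1 PAM the log2 fold change was -1.46 (SE 0.79, limma adjusted p = 0.17), and it was -2.46 (limma adjusted p = 0.0095) without the treated library of line 2. With day 2 indirect CAP it was -1.52 (SE 0.41, limma adjusted p = 0.0171), and -1.88 (limma adjusted p = 0.0095) without that of line 2.

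**Figure D2:**
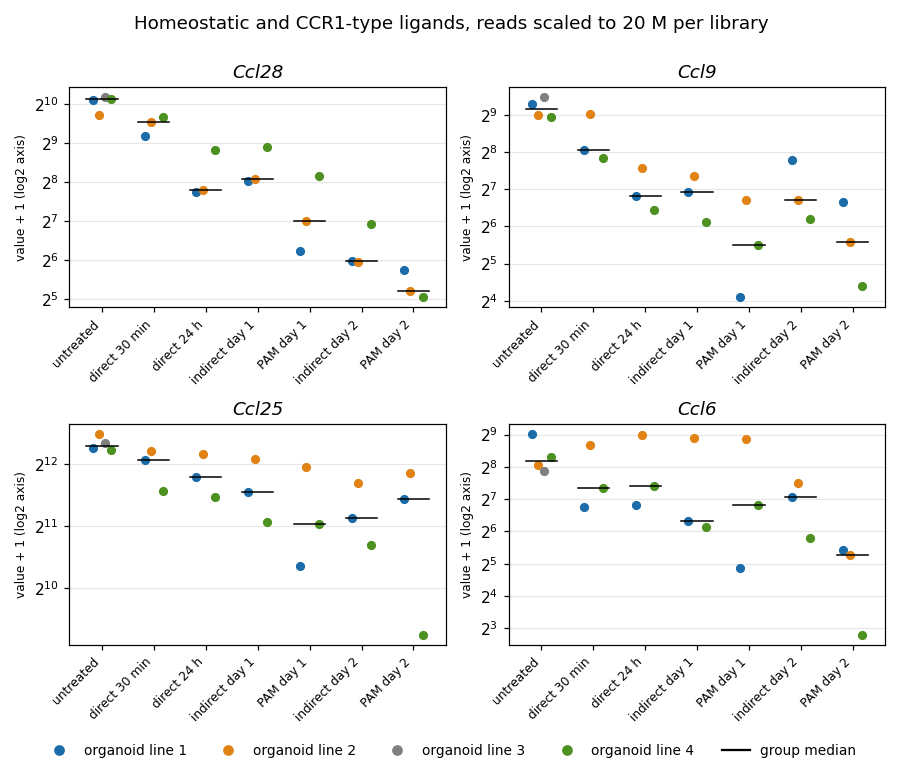
Values of Ccl28, Ccl9, Ccl25 and Ccl6 (reads scaled to 20 M per library, plus 1, log2 axis) in each library by group; colours are organoid lines and bars are group medians. For Ccl28 and Ccl25 all 18 treated points lie below the untreated ones, while the Ccl6 value of line 2 is within the untreated range in 4 of the 6 treated groups.

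Markers of several, not all, epithelial cell types were lower in the same libraries, and their part in these differences was not tested. The 5 stem markers were all lower past the threshold with day 1 PAM, day 2 indirect CAP and day 2 PAM, and their summed level was between 1306 and 2640, 2703 and 3953, and 757 and 2747. All 6 Paneth cell markers had lower means with day 1 PAM, 4 of them past the threshold, with a summed level between 4370 and 19040 against 30017 to 41590 in untreated libraries. In the day 2 groups, where Ccl28 was lowest, 1 of the 6 (Itln1) was past the threshold, with summed levels between 18120 and 28614 for indirect CAP and between 4856 and 21442 for PAM. All 6 had higher means with day 2 than with day 1 indirect CAP, none past the threshold. The 8 goblet cell markers summed to between 80459 and 138764 in untreated libraries and between 18968 and 49060 with day 2 PAM, where 4 were past the threshold and lower. With day 1 PAM the goblet sum was between 86203 and 194755, and only Clca1 was past the threshold, in the higher direction. The 7 enterocyte markers summed to between 110990 and 129268 in untreated libraries and between 150243 and 195308 with day 2 PAM. There 3 had higher and 4 lower means, and 1 was past the threshold, in the higher direction. With day 2 indirect CAP the sum was between 110997 and 131695, with 1 past the threshold and higher and 2 lower. The 4 enteroendocrine markers went both ways with day 2 PAM, 2 higher and 2 lower, 1 of the latter past the threshold.

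Cxcl16 (ENSMUSG00000018920, chromosome 11, 70453983 to 70459984) encodes a membrane-anchored chemokine that binds CXCR6 on T cells and natural killer T cells, attracts them once shed, and takes up oxidized lipoprotein as a scavenger receptor. Its untreated values were 304, 682, 1040 and 1009 in lines 1 to 4. After 30 min of direct CAP lines 1, 2 and 4 gave 661, 754 and 2453, and after 24 h 2012, 1807 and 4143. Only line 4 was above the untreated range in the 30 min group, and all 3 lines were above it in the 24 h group. Indirect CAP gave 1395, 1395 and 3112 from day 1 and 3918, 3184 and 5927 from day 2. PAM gave 2825, 3275 and 4192 from day 1 and 3818, 4362 and 9865 from day 2. In each treated group line 4 had the highest value.

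Cxcl16 rose with day 1 PAM (log2 fold change 2.31, SE 0.40, limma adjusted p = 0.0025), day 2 indirect CAP (2.62, SE 0.42, limma adjusted p = 0.0016) and day 2 PAM (3.001, SE 0.48, limma adjusted p = 0.0018), 8.01-fold in the last of these. The first of these calls was lost without the PAM day 1 library of line 4, at 2.15 (limma adjusted p = 0.0126). Over the 9 libraries of the 3 groups treated for 24 h from day 1, fitted as if independent, the log2 fold change was 1.86 (SE 0.36, limma adjusted p = 0.0019). On their own, 24 h of direct CAP (1.85, SE 0.45, limma adjusted p = 0.0267) and day 1 indirect CAP (1.41, SE 0.45, limma adjusted p = 0.0569) were not past the threshold. With a replicate block for the organoid line both were past it, at 2.05 (limma adjusted p = 0.0054) and 1.62 (limma adjusted p = 0.0091). That block rests on the line labels of the untreated libraries. Those of lines 1 and 2 each resembled the treated libraries of the other line more than those of their own.

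Exons of Cxcl16 and Zmynd15, a gene on the opposite strand, overlap over 552 bases. The value of Zmynd15 was between 0.345 and 0.409 times that of Cxcl16 in every one of the 22 libraries (median 0.393), while Cxcl16 itself ranged from 304 to 9865. Zmynd15 gave 105, 261, 391 and 412 in untreated lines 1 to 4, and 1501, 1778 and 3835 in lines 1, 2 and 4 with day 2 PAM. The ratio was thus nearly fixed while both levels varied widely. Without the strand setting of the counting, reads of the shared stretch cannot be assigned to one of the genes, and which of them the difference belongs to cannot be told apart from these values alone.

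**Figure D3:**
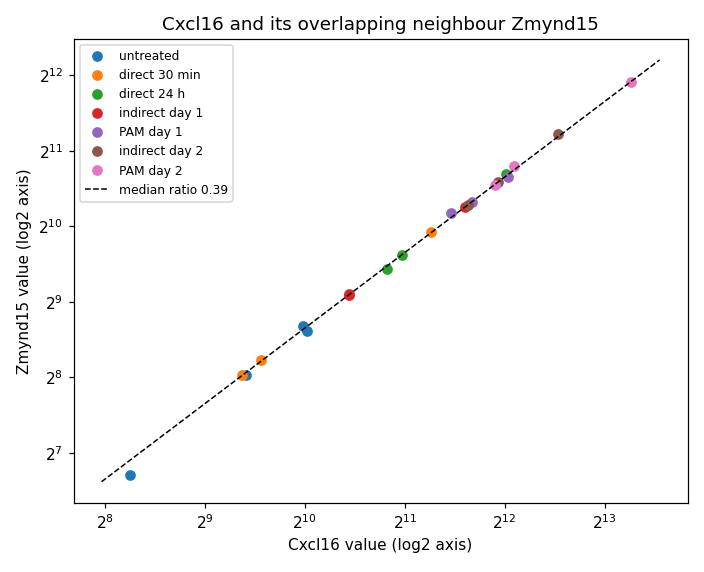
Value of Zmynd15 against value of Cxcl16 in the 22 libraries (both log2 axes, reads scaled to 20 M), coloured by group, with a dashed line at the median ratio. All libraries lie close to the line, at ratios between 0.345 and 0.409.

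Cx3cl1 (ENSMUSG00000031778, chromosome 8, 94772009 to 94782427) encodes fractalkine, a membrane-anchored chemokine that supports adhesion and survival of CX3CR1-bearing macrophages and intraepithelial cells. The untreated values were close together, at 748, 795, 694 and 684 in lines 1 to 4. After 30 min of direct CAP lines 1, 2 and 4 gave 897, 927 and 913, and after 24 h 1060, 1366 and 864. Indirect CAP gave 924, 1244 and 1066 from day 1 and 1124, 1384 and 1038 from day 2. Apart from 1 library, the treated values were above all untreated values, and line 2 was highest in every treated group. PAM gave 1125, 1658 and 1094 from day 1 and 1271, 1388 and 783 from day 2, the last being that exception.

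The change of Cx3cl1 was small and none of the 6 groups was past the fold threshold. The log2 fold change ranged from 0.32 (SE 0.08, limma adjusted p = 0.11) after 30 min of direct CAP to 0.80 (SE 0.15, limma adjusted p = 0.0037) with day 1 PAM. It was 0.69 (SE 0.11, limma adjusted p = 0.0018) with day 2 indirect CAP and 0.61 (SE 0.19, limma adjusted p = 0.0304) with day 2 PAM. At 30 min of direct CAP Cx3cl1 was above, and Ccl25 and Ccl28 were below, the untreated range in all 3 libraries, as were 12.4% of all genes above it and 11.2% below it.

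Cxcl10 (ENSMUSG00000034855, chromosome 5, 92346638 to 92348889) encodes a ligand of CXCR3 that attracts activated T cells and is induced by interferons. Its promoter window is the one shown above with both motifs. It was barely detected in untreated organoids, at 4, 1, 6 and 10 in lines 1 to 4. Direct CAP gave 7, 7 and 10 in lines 1, 2 and 4 at 30 min and 3, 15 and 13 at 24 h. The media from day 1 gave 5, 11 and 10 with indirect CAP and 2, 15 and 22 with PAM. None of these 4 groups was separate from the untreated libraries, and at this depth such values rest on a handful of reads. With exposure from day 2 the values were 15, 129 and 105 with indirect CAP and 12, 158 and 107 with PAM. Lines 2 and 4 were far above every untreated library in both groups, and line 1 was just above them.

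The log2 fold change of Cxcl10 was 3.52 (SE 0.82) with day 2 indirect CAP and 3.53 (SE 0.91) with day 2 PAM. Only 1 of the 4 untreated libraries reached the filter value of 10 and all 3 treated libraries of each group did, so the gene entered the test through the libraries in which it was high, and these values are given as a description. Without the filter Cxcl10 was past the threshold in neither group (limma adjusted p = 0.0128 and 0.0194). Exons of Cxcl10 share 133 bases with Art3 on the opposite strand, whose median value was 3.5. The 9 table entries for the leukocyte markers summed to between 322 and 379 in the day 2 groups and between 278 and 387 in the untreated libraries.

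Ccl20 (ENSMUSG00000026166, chromosome 1, 83116766 to 83119167) encodes the ligand of CCR6, which attracts dendritic cells, B cells and Th17 cells to the epithelium over lymphoid follicles. Untreated values were 91, 289, 526 and 611 in lines 1 to 4. Line 4 gave 1400 and 3321 after 30 min and 24 h of direct CAP, 1950 and 2369 with indirect CAP from day 1 and day 2, and 2545 and 1412 with PAM from day 1 and day 2. Every treated value of line 4 was above all untreated values. The 6 treated values were between 195 and 581 in line 1 and between 168 and 613 in line 2, with a single one, 613, above the untreated range. Line 4 was the highest in each of the 6 treated groups.

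With this spread between lines Ccl20 was past the threshold in none of the groups. Its log2 fold change was 1.43 (SE 0.86, limma adjusted p = 0.29) after 24 h of direct CAP and 1.17 (SE 0.74, limma adjusted p = 0.24) over the 9 libraries treated for 24 h from day 1. With a replicate block for the line, the latter became 1.43 (limma adjusted p = 0.0030), past the threshold. The block rests on the line labels, and the untreated libraries of lines 1 and 2 each resembled the treated libraries of the other line more than those of their own, with median correlations after removal of group means of 0.541 against 0.0751 for untreated line 1 and 0.353 against 0.132 for untreated line 2. For 30 min of direct CAP the log2 fold change of Ccl20 was 0.24 (SE 0.85), and it became -0.34 with untreated line 1 left out and -0.74 with treated line 4 left out.

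**Figure D4:**
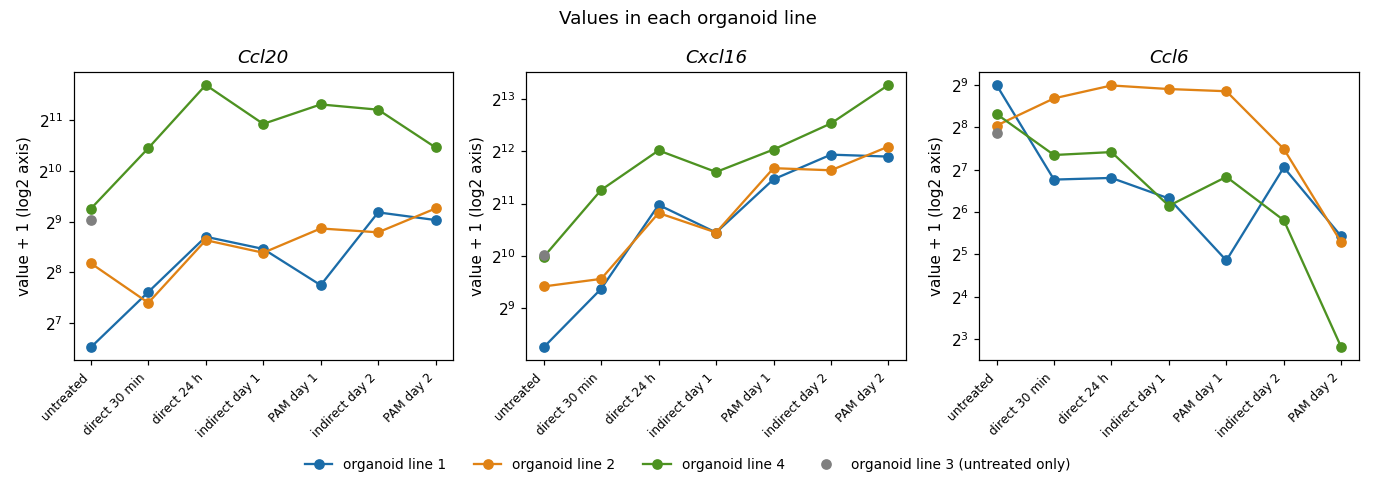
Values of Ccl20, Cxcl16 and Ccl6 (reads scaled to 20 M per library, plus 1, log2 axis) with each organoid line joined across the groups; line 3 has an untreated library only, and the groups are conditions, not a time course. Line 4 is highest for Ccl20 and Cxcl16 in all 6 treated groups and line 2 for Ccl6 in 5.

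Cxcl1 and Cxcl5 encode neutrophil attractants that signal through CXCR2, and their genes lie on chromosome 5 (ENSMUSG00000029380, 90891241 to 90893115, and ENSMUSG00000029371, 90759360 to 90761624). Both were low. Cxcl1 gave 10, 12, 29 and 20 in untreated lines 1 to 4 and between 10 and 53 in the treated libraries, of which 7 of 18 were above the untreated range. Its largest log2 fold change was 0.89 (SE 0.53, limma adjusted p = 0.19) with day 2 PAM, where the lines gave 14, 40 and 53, and it was past the threshold in no comparison. Cxcl5 was at 1, 1, 2 and 1 in the untreated libraries and between 0 and 4 in the treated ones. Differences in Cxcl5 were not detectable at this depth.

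**Figure D5:**
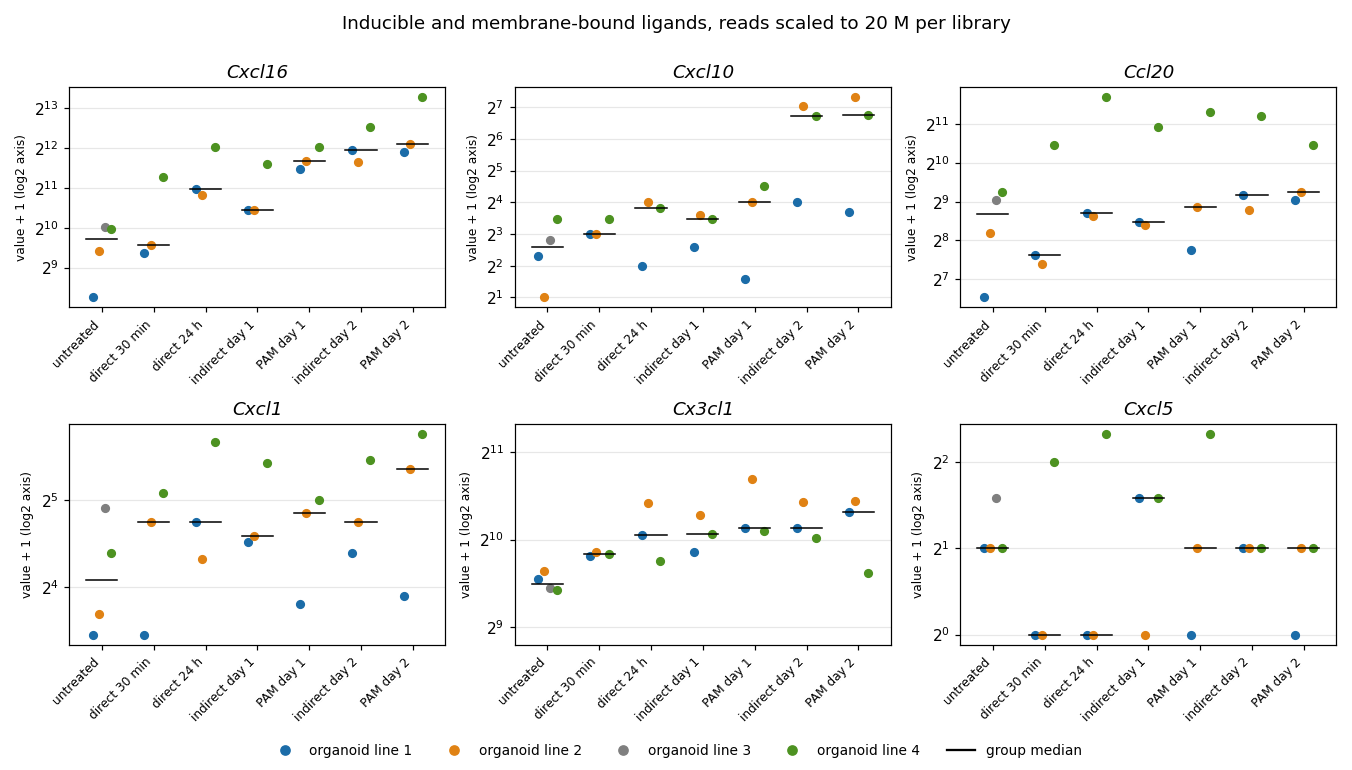
Values of Cxcl16, Cxcl10, Ccl20, Cxcl1, Cx3cl1 and Cxcl5 (reads scaled to 20 M per library, plus 1, log2 axis) in each library by group; colours are organoid lines and bars are group medians. Cxcl10 stands at 105 to 158 in lines 2 and 4 only in the groups exposed from day 2, and Cxcl5 never exceeds 4.

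Comparing treated groups with each other sets duration, route and timing of exposure side by side. As all cultures ended together, duration was inseparable from the time then spent in fresh medium. Timing was inseparable from that time and from the age of the treated medium. Without the block none of the chemokines was past the threshold in any of the 5 such comparisons, which for all genes gave 0.0111% in the comparison of day 2 indirect CAP with that from day 1 and 0% in the other 4. In limma an unadjusted p under 0.05 was found for 2 of 9 chemokines between 24 h and 30 min of direct CAP (21.4% of all genes), for 3 between day 2 and day 1 indirect CAP (21.7%), for 1 between day 1 PAM and 24 h of direct CAP (10.4%), for 1 between day 2 and day 1 PAM (26.8%), and for 0 between day 1 indirect CAP and 24 h of direct CAP (6.95%).

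Since the same lines recur in each treated group, the replicate block here does not touch the untreated libraries. With it, 24 h of direct CAP differed from 30 min of direct CAP in 4 chemokines, where 1.13% of all genes were past the threshold. In the 24 h group Cxcl16 was higher by 1.21 on the log2 scale (limma adjusted p = 0.0058) and Ccl20 by 1.19 (limma adjusted p = 0.0024). Ccl28 was lower there by a log2 fold change of -1.34 (limma adjusted p = 0.0065) and Ccl9 by -1.36 (limma adjusted p = 0.0040). Day 2 differed from day 1 indirect CAP in Ccl28, which was lower, at -2.06 (limma adjusted p = 2.16e-05), and in Cxcl16, which was higher, at 1.20 (limma adjusted p = 6.18e-05), where 3.46% of all genes were past the threshold. Cxcl10, which again passed the filter through its high libraries, differed by 2.71. Each line went the same way. For Cxcl16, for example, 30 min of direct CAP gave 661, 754 and 2453 in lines 1, 2 and 4, and 24 h gave 2012, 1807 and 4143.

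PAM and indirect CAP were not tested against each other. Against 24 h of direct CAP, no chemokine was past the threshold with day 1 indirect CAP or day 1 PAM, with or without the block. Without it, for Cxcl16, day 1 PAM against 24 h of direct CAP gave a log2 difference of 0.45 with a 95% interval of -0.27 to 1.18, and day 1 indirect CAP against 24 h of direct CAP gave -0.44 (-1.37 to 0.50). For Ccl28 the intervals were -2.15 to 0.18 and -0.60 to 1.04, and for Ccl9 they were -2.98 to -0.05 and -1.05 to 0.77. The Ccl9 difference between PAM and direct CAP, -1.51, had an unadjusted p of 0.0443 and a limma adjusted p of 0.47.

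With the block, 0.34% of all genes (58) were past the threshold between day 1 PAM and 24 h of direct CAP, and none between day 1 indirect CAP and 24 h of direct CAP. Ccl9 was lower with PAM than with direct CAP in all 3 lines, by a log2 difference of -1.51 (95% interval -2.24 to -0.79, limma adjusted p = 0.0389). Ccl28 was also lower in all 3, at -0.99 (-1.39 to -0.59, limma adjusted p = 0.0238), and Cxcl16 was higher in all 3, at 0.45 (0.12 to 0.79, limma adjusted p = 0.13). For day 1 indirect CAP against 24 h of direct CAP the Cxcl16 value was -0.44 (-0.64 to -0.24, limma adjusted p = 0.13), lower in all 3 lines.

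Day 2 PAM against day 1 PAM gave -1.80 for Ccl28 (-2.96 to -0.64, limma adjusted p = 0.0821), which was past the threshold in a single fit of all 7 groups (limma adjusted p = 0.0042). With the block Ccl28 was not past the threshold (-3.08 to -0.53, limma adjusted p = 0.0766), and 0% of all genes were.

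Other chemokine genes were nearly silent. Of 28 further ligand genes, present as 32 entries of the table, 31 entries were under 10 in every library and none was tested against untreated organoids. The remaining entry was Cxcl2, a neutrophil attractant with a maximum of 13, which was tested only between day 2 and day 1 PAM (log2 fold change 0.24, SE 0.69, limma adjusted p = 0.85). Of 23 chemokine receptor genes, 15 were under 10 in every library and between 4 and 5 were tested in each comparison with untreated organoids. Ccr9, the receptor for CCL25, lay between 101 and 535, and Ackr4, a decoy receptor that removes CCL25 among others, between 476 and 1400. Neither was past the threshold, with log2 fold changes from -0.995 to -0.0060 for Ccr9 and from -0.72 to 0.15 for Ackr4. The mean of Cxcr4, the receptor for CXCL12, was 42.3 (SD 14.4, n = 4) in untreated libraries. With day 1 PAM it was 5 (SD 3.6, n = 3), a log2 fold change of -3.03 (SE 0.56). It was 8.67 (SD 5.13) with day 2 indirect CAP (-2.26, SE 0.50) and 5 (SD 1) with day 2 PAM (-2.78, SE 0.37). These treated means are below the filter value of 10 and rest on a handful of reads. Cxcr4 thus entered the tests through untreated libraries, in which it was high, and its values are given as a description.

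CXCL16 and CX3CL1 are released from the cell surface by the proteases ADAM10 and ADAM17. Adam10 was between 3252 and 4748 and Adam17 between 1180 and 1653 over the 22 libraries, and neither was past the threshold in any comparison with untreated organoids. The largest log2 fold change of either in size was -0.17, for Adam10 with day 2 indirect CAP (limma adjusted p = 0.11). Dpp4, a protease that clips CXCL10, ranged from 13 to 1092 and gave -2.16 with day 2 PAM (limma adjusted p = 0.11). None of the 4 proteases tested of the 7 listed was past the threshold.

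All 14 listed genes of NF-kB subunits, inhibitors and kinases were tested. With direct CAP for 30 min or 24 h and with day 1 PAM, 11 of 14 had higher means than in untreated libraries. With day 1 indirect CAP 13 did, and the medians in these groups were from 0.18 to 0.23, with none past the threshold. In the day 2 groups 13 of 14 had a higher mean log2 value than in untreated libraries with either medium. The medians there were 0.53 and 0.54 against -0.01 and -0.12 over all genes tested, and 1 gene was past the threshold. This was Bcl3, an atypical inhibitor that binds the p50 and p52 subunits, at 1.06 (SE 0.19, limma adjusted p = 0.0025) with indirect CAP and 1.13 (SE 0.21, limma adjusted p = 0.0033) with PAM. Nfkbia, which encodes the inhibitor IkB alpha and is itself an NF-kB target, had a log2 fold change of 0.81 in both (limma adjusted p = 0.0086 and 0.0082), short of the fold threshold. Nfkb1 went the other way in both, at -0.35 (limma adjusted p = 0.0046) and -0.37 (limma adjusted p = 0.0068).

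Of 13 listed receptors that feed into NF-kB, 11 were tested. Tlr4, the receptor for bacterial lipopolysaccharide, rose with 24 h of direct CAP (log2 fold change 1.41, SE 0.25, limma adjusted p = 0.0092), day 1 PAM (1.66, SE 0.38, limma adjusted p = 0.0091) and day 2 PAM (1.40, SE 0.25, limma adjusted p = 0.0027). Il1r1, the interleukin-1 receptor, rose with day 1 PAM (2.21, SE 0.30, limma adjusted p = 0.00090), from a mean of 10.8 (SD 3.86, n = 4) to 51.3 (SD 3.21, n = 3). Its untreated mean was close to the filter value of 10, and the treated libraries alone took it past the filter. Of 10 listed genes of the interferon gamma pathway, 9 were tested. Only Irf8, a transcription factor of that pathway, was past the threshold, and it was lower, at -1.07 (SE 0.15, limma adjusted p = 0.00095) with day 1 PAM and -1.52 (SE 0.24, limma adjusted p = 0.0018) with day 2 PAM. Irf1, another transcription factor of the pathway, was not past the threshold, with log2 fold changes of 0.24 for day 2 indirect CAP and -0.38 for day 2 PAM.

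To set the chemokines against each other, values were divided by the merged length of all annotated exons (GENCODE vM21, GRCm38), from 1421 bases for Ccl20 to 7445 for Ccl25. Per kilobase, untreated organoids had Ccl25 at 690.4 (SD 53.8, n = 4), above the range of all other chemokines. Ccl20 (267, SD 166), Cxcl16 (251, SD 114), Ccl28 (219, SD 29.9), Ccl9 (191, SD 33.5), Cx3cl1 (186, SD 13.1) and Ccl6 (185, SD 70.0) followed, with ranges that overlapped from each to the next. Cxcl1 (9.47, SD 4.62), Cxcl10 (2.33, SD 1.68) and Cxcl5 (0.671, SD 0.268) were far lower.

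The order was different with day 2 PAM. There Cxcl16 stood first at 1991 per kilobase (SD 1107, n = 3), without overlap with Ccl20 (598, SD 344), and Ccl25 (318, SD 214) and Cx3cl1 (292, SD 81.7) came next. Cxcl10 (41.0, SD 32.9), Cxcl1 (19.0, SD 10.6), Ccl9 (18.2, SD 13.2) and Ccl6 (16.0, SD 11.0) overlapped from each to the next. Ccl28, in the middle of the order in untreated organoids, had the lowest mean but for Cxcl5, at 8.33 (SD 2.30). Its range overlapped that of Ccl6, so the 2 were not separated.

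Over the 22 libraries, the genes whose log2(value + 1) followed each chemokine most closely were taken from 11682 genes with a median value of at least 100. As all libraries share the treatment and the lines, the correlations describe likeness only. Zmynd15 followed Cxcl16 with a Pearson r of 0.999, then Atp6v0d1 and Gch1 with 0.978 and 0.976. Hnf4g, Gm16143 and Reg1 followed Ccl25 (0.970, 0.969 and 0.966), and Pxylp1, Oip5 and Far2 followed Ccl28 (0.969, 0.968 and 0.968). Oat, 1600014C10Rik and Gm45912 were nearest to Ccl9 (0.953, 0.950 and 0.946), and Selenom, Hepacam2 and Spink4 to Ccl6 (0.949, 0.944 and 0.926). Ccl9 and Ccl6 had no gene in common among their nearest 3. For Ccl20 they were Mocs1, Neurl3 and Mep1b (0.916, 0.913 and 0.911), and for Cx3cl1 Slc52a3, Slc22a5 and Secisbp2l (0.894, 0.884 and 0.882).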

How the data were processed

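RNA of 22 organoid libraries was analysed. The authors trimmed reads with Trimmomatic 0.36, aligned them with STAR 2.5.3a to GRCm38, counted them on Ensembl genes with HTSeq 0.9.1 and deposited a score per gene and library, a read count scaled to 20 M and rounded up (library sums 20007540 to 20016513). The paper defines its unit, CP20M, per kilobase of transcript, whereas the lowest values here step by about 1 read whatever the gene, so they were taken as not divided by length. Raw counts were not used here, so limma 3.58.1 (R 4.3.3) on log2(value + 1) replaced the study's count test. The fit covered all genes with a value of at least 10 in at least 3 libraries. Data were simulated for the pooled comparison (18243 genes) and for 24 h of direct CAP against untreated (17371). They were also simulated for day 1 PAM against 24 h of direct CAP (17213). The fit found 200 of 200 changed genes in each, with 1, 1 and 0 false calls. The planted changes were larger than the fold threshold and were placed only in genes above a minimum mean, with no difference between lines. Recovery of changes near the threshold was therefore not examined. These counts apply to the simulated data alone. How the fit performs at the spread between lines of the real libraries was not tested. Chemokines and gene lists were chosen with earlier results of these data known; all 10 are named, with genes past the threshold from the chemokine receptor, ligand, protease, NF-kB and interferon lists in the comparisons described, genes a sentence singles out and the 3 closest genes by correlation. Some listed genes are not reported here. Same-numbered libraries share an organoid line: treated pairs of a line correlated at 0.219 to 0.806 after removal of group means (median 0.564). The alternatives tried were a pseudocount of 10, quantile normalization, dropping the filter, 1 fit of 7 groups, the replicate block, an adjusted p under 0.05 without minimum fold change, and leaving out each library. Gene positions are from GENCODE vM21 and promoter sequences from RefSeq; exact sharing between transcripts was checked with BLAST+ and figures drawn with matplotlib.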

Additional observations from a re-analysis of the deposited data

Results flagged for a closer look

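In groups of 4 to 10 libraries, a value standing apart from the rest was looked for with Dixon's test at the 95% level, which flags about 1 in 20 groups by chance. Among the untreated libraries the Ccl28 value of line 2, 844, lay apart from the other 3, which were between 1109 and 1156. All 18 treated values, at most 811, were below it as well. For Cxcl5 the untreated library of line 3, with a value of 2, lay apart from the other 3 at 1, a difference of about 1 read.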

How the results depend on the processing

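Of the 19 chemokine calls against untreated organoids, Cxcl10 with day 2 indirect CAP included, 18 held with quantile normalization, 19 with a pseudocount of 10, 18 without the filter, 16 in 1 fit of all 7 groups and 18 with the replicate block, and 124 of 151 held over the fits that left out 1 library; none changed sign. Counting by an adjusted p under 0.05 without a minimum fold change gave 5 chemokines for the 3 groups of day 1 together (33.5% of all genes), 5 for 24 h of direct CAP (17.3%), 4 for day 1 indirect CAP (20.6%), 5 for day 1 PAM (41.8%) and 1 for day 2 against day 1 indirect CAP (3.37%). In 1 fit of all 7 groups the count was 1 for 24 h of direct CAP, 1 for day 1 indirect CAP and 1 for day 2 against day 1 PAM. With the replicate block it was 4 for 24 h against 30 min of direct CAP and 3 for day 2 against day 1 indirect CAP, Cxcl10 included. Leaving out each library in turn gave between 0 and 2 chemokines for 24 h of direct CAP, 0 and 2 for day 1 indirect CAP, 2 and 5 for day 1 PAM (5 without line 2, 2 without line 4) and 3 and 5 for day 2 indirect CAP, Cxcl10 included (3 without line 4). After 30 min of direct CAP, where neither gene was past the threshold, the log2 fold change of Cxcl1 was -0.071 with quantile normalization and between -0.0076 and 0.81 with 1 library left out, and that of Ccl20 between -0.74 and 0.78. The cause was not tested. Quantile normalization moved the median of all genes by over 0.1 on the log2 scale for day 2 PAM alone (by 0.118). Values of Cxcl5, and of Cxcl10 outside the day 2 groups, are limited by depth.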
